A study of Mus musculus with 14 samples.

Results

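The HoxA cluster was followed here through 10 transcripts, Hoxa2, Hoxa3, Hoxa4, Hoxa5, Hoxa7, Hoxa9, Hoxa10, Hoxa11, Hoxa13 and Hoxa11as, the antisense transcript of Hoxa11. They were taken as the rows of the count files whose gene symbol equals one of these names, 10 of the 23284 symbols counted. RNA-seq had been done on mouse forelimb buds (strain NMRI) with or without Smad4 in the limb mesenchyme, and the members were compared between genotypes and between stages. The mutants (Smad4ddc in the plots) were Smad4Δ/Δc PrxCreT/+, in which 1 Smad4 allele is null in all cells and the other is a floxed allele that the Prrx1-Cre transgene recombines in limb bud mesenchyme, so that ectoderm, endothelium and blood keep a functional floxed allele. The controls (ctrl in the plots) were Smad4+/+ PrxCreT/+ and thus carry the same Cre transgene. At 30 somites (E10.0) there were 3 control and 4 mutant samples, and at 35 somites (E10.5) again 3 control and 4 mutant samples. Each sample pooled both forelimb buds of 1 embryo. Control replicates were numbered 1, 2 and 3, mutant replicates 1, 3, 4 and 5 at 30 somites and 1, 2, 4 and 5 at 35 somites.

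HOX proteins are homeodomain transcription factors that give cells positional identity along the body axis and along the limb. The genes of a cluster are switched on in an order that follows their order on the chromosome, from the 3′ end (Hoxa2, Hoxa3) to the 5′ end (Hoxa13), and in the limb the 5′ genes of HoxA and HoxD pattern the proximodistal axis. Hoxa9 and Hoxa10 act in the upper arm segment, Hoxa11 in the forearm segment and Hoxa13 in the hand and foot plate. Hoxa11as is a non-coding transcript that runs against Hoxa11, and in the later limb bud it is transcribed distally, where Hoxa11 is off. SMAD4 is the common partner of the receptor-activated SMADs in BMP and TGFβ signal transduction.

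In the mm9 mouse genome (NCBIM37, GENCODE vM1 annotation) the members lie on chromosome 6 between 52112350, the 3′ end of Hoxa2, and 52210874, the start of Hoxa13. All of them are transcribed from the minus strand except Hoxa11as, which is on the plus strand. From the Hoxa13 start, the outermost annotated starts of the genes follow at 14.7 kb (Hoxa11), 16.5 kb (Hoxa11as), 20.02 kb (Hoxa10), 29.8 kb (Hoxa9), 39.0 kb (Hoxa7), 47.5 kb (Hoxa3), 56.3 kb (Hoxa5), 69.1 kb (Hoxa4) and 95.5 kb (Hoxa2). The reference transcript of Hoxa11as starts nearer to Hoxa13, at 52195242. The Hoxa3 position is that of a long transcript with 9 exons that starts upstream of Hoxa5 and Hoxa4.

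Hoxa11 (52192107 to 52196213) and Hoxa11as (52194392 to 52199798) overlap head to head. The starts of their reference transcripts are 971 bases apart, and exons 1 and 2 of the 5 exons of Hoxa11as lie entirely within exon 1 of Hoxa11 (52195010 to 52196213). Exon 1 of Hoxa11as shares 477 of its 574 bases with the coding part of Hoxa11. The shared stretch of 790 bases is 29.4% of the Hoxa11 and 43.0% of the Hoxa11as reference transcript. Counting was without strand, so a read in a stretch that both genes held in the annotation used for counting belonged to both. Such a read was set aside as ambiguous and added to neither value. That annotation was not GENCODE vM1, so the stretch left out of the counts need not be these 790 bases. Hoxa2 shares 267 exonic bases with Hoxa3, Hoxa7 shares 586 with the antisense transcript 2700086A05Rik and Hoxa9 shares 85 with the microRNA gene Mir196b. Hoxa3 also shares 1055 with 5730446D14Rik, 300 with 2700086A05Rik and 292 with 5730596B20Rik, and 28.0% of its exonic bases are shared in all. Hoxa9 also shares 198 with RP23-329P9.11 and 186 with 9930038K12Rik. The same limit holds for those stretches where the annotation used for counting held the other gene. Hoxa4, Hoxa5, Hoxa10 and Hoxa13 share no exonic base with another annotated gene.

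The 250 bases upstream of the RefSeq starts of the antisense pair Hoxa11 and Hoxa11as, whose balance is described below, and of Hoxa13, which changed most with stage, are shown 5′ to 3′ on the strand of each gene, from GRCm38.p6 and therefore with other coordinates than those above. Capitals mark GTCT or its reverse complement AGAC, the core letters of the SMAD-binding element. In the RefSeq table Hoxa11as is named Hoxa11os, and the windows are chr6:52245811-52246060 (minus strand) for Hoxa11, chr6:52244993-52245242 (plus strand) for Hoxa11as and chr6:52260881-52261130 (minus strand) for Hoxa13. By these coordinates each window of the antisense pair lies downstream of the start of the other gene. In mm9 the Hoxa11as reference transcript likewise starts at 52195242, inside exon 1 of Hoxa11 (52195010 to 52196213). The letters and GC content of these 2 windows are therefore those of sequence transcribed in the partner gene.
Hoxa11: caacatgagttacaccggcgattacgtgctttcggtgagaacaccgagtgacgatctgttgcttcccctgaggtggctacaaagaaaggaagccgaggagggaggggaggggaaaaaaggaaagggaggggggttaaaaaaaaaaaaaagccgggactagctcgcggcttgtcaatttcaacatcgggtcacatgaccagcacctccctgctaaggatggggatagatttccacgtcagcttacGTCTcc
Hoxa11as: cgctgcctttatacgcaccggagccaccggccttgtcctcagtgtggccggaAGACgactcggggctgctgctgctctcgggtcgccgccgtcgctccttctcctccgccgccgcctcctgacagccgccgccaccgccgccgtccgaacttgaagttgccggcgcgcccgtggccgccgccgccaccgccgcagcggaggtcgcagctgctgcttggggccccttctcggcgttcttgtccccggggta
Hoxa13: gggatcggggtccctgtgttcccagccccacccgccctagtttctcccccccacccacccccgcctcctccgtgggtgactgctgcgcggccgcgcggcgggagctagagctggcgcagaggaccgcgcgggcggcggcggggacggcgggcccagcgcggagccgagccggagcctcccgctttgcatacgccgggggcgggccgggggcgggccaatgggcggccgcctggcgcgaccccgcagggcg
GTCT or AGAC occurred once in the Hoxa11 window and once in the Hoxa11as window, and it was not found in the Hoxa13 window. Of all 32851 promoter windows of this length in the RefSeq table, 82.9% held at least 1 of these tetramers, so that their presence sets no member apart. Across the 9 of 10 members with a window, the Hoxa10 windows held 7 and 1, Hoxa2 and Hoxa7 held 2 each, Hoxa3 and Hoxa5 held 1 each and Hoxa9 held none. The palindrome GTCTAGAC (0.167% of all windows) was in no member window, and GGCGCC, a GC-rich SMAD motif (9.59% of all windows), was in 1 window of Hoxa10. The windows differed widely in GC content, which was 52.0% for Hoxa11, 72.8% for Hoxa11as and 80.0% for Hoxa13, beside a median of 52.4% over all windows. For Hoxa4 no promoter sequence was used here.

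The 14 samples had 34066930 to 61691258 reads counted on genes. Smad4 itself followed the labels, with 161 ± 8.42 CPM (reads of a gene scaled to a fixed library size after TMM normalization, mean ± SD) in controls and 39.7 ± 4.18 CPM in mutants at 30 somites, and 166 ± 2.27 against 37.0 ± 3.43 CPM at 35 somites. In mutant replicates 4 and 5 of both stages the ribosomal RNA precursor Rn45s took 1.72% to 8.05% of the reads, against 0.151% to 0.478% in the other 10 samples. These 4 samples are all mutants, so in them the kind of library and the genotype cannot be told apart, and genotype results are given below also for the samples numbered 1 to 3 alone. The forelimb label was checked with markers. The limb mesenchyme markers Prrx1, Prrx2, Tbx5, Twist1, Msx1 and Lhx9 summed to 990 to 1467 CPM across all samples, the hindlimb gene Pitx1 was under 1 CPM in every group, and Tbx4 was at 3.26 and 3.93 CPM at 30 somites and 7.80 and 13.5 CPM at 35 somites in controls and mutants. By the test below Tbx4, also a hindlimb gene, was higher in mutants at 35 somites and rose with stage in both genotypes.

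Other markers moved with the groups. The 6 limb mesenchyme markers summed to 1217 to 1412 CPM in controls and 990 to 1171 in mutants at 30 somites, and to 1407 to 1467 against 1131 to 1224 at 35 somites; 4 of the 6 were lower in mutants by the test below at 30 somites and 3 at 35 somites. Mesothelial and body wall markers (Wt1, Upk3b, Msln) summed to 1.08 to 2.64 CPM in controls and 7.94 to 18.3 in mutants at 30 somites, but to 2.90 to 5.49 and 0.586 to 2.38 at 35 somites, and Wt1 and Upk3b, the 2 of them with enough reads to be tested, passed at both stages. Somite markers (Meox1, Tcf15, Pax1, Uncx) summed to 25.9 to 27.5 against 26.3 to 36.4 CPM at 30 somites and to 40.8 to 47.9 against 25.6 to 28.2 at 35 somites. Of the 3 somite markers tested, Meox1 and Tcf15 were higher and Pax1 lower in mutants at 30 somites, and Tcf15 was higher and Pax1 lower at 35 somites. Macrophage markers summed to 1.68 to 3.76 in controls and 4.94 to 5.97 in mutants at 30 somites, and to 8.61 to 9.49 and 9.01 to 15.8 at 35 somites, and of the 2 tested Cx3cr1 was higher in mutants at 30 somites (adjusted P=2.12e-05). No endothelial or erythroid marker passed between the genotypes, and of the ectoderm and muscle precursor markers Krt5 was lower and Myf5 higher in mutants at 30 somites. In whole buds fewer cells of a type and less RNA per cell cannot be told apart, and the part of these markers in the values of the HoxA members was not tested.

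All 10 members were detected in every sample, from 2 reads for Hoxa13 in a 30-somite mutant upwards. To compare genes, CPM were divided by the length of the reference transcript in kb. In 30-somite controls Hoxa10 stood highest at 48.6 ± 6.06 CPM per kb (SD, n=3), followed by Hoxa11 at 28.9 ± 2.21. Hoxa9 (16.4), Hoxa5 (15.4) and Hoxa11as (15.3) came next with overlapping samples, then Hoxa7 (5.69) and Hoxa4 (4.95), again overlapping, then Hoxa3 (3.43) and Hoxa2 (3.01), also overlapping, and Hoxa13 came last at 0.0917 CPM per kb. Between these sets the samples did not overlap. The per-length levels of Hoxa11 and Hoxa11as are understated by whatever stretch they share in the annotation used for counting.

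The order of the per-length levels in the other groups was nearly the same. Hoxa10 was first and Hoxa11 second in all 4 groups, at 41.8 and 26.2 CPM per kb in 30-somite mutants, 56.6 and 32.1 in 35-somite controls and 57.5 and 31.8 in 35-somite mutants. Hoxa11as came next at 35 somites, with 17.1 CPM per kb in controls and 19.8 in mutants, apart from the members below it, whereas at 30 somites it did not stand apart from Hoxa5. With the union of all annotated exons as length, Hoxa11as dropped to the fifth place in both 35-somite groups while Hoxa10 and Hoxa11 kept the leading places. At 30 somites the means of Hoxa10 and Hoxa11 were then closer, 32.5 and 28.9 CPM per kb in controls and 27.9 and 26.2 in mutants.

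**Figure D1:**
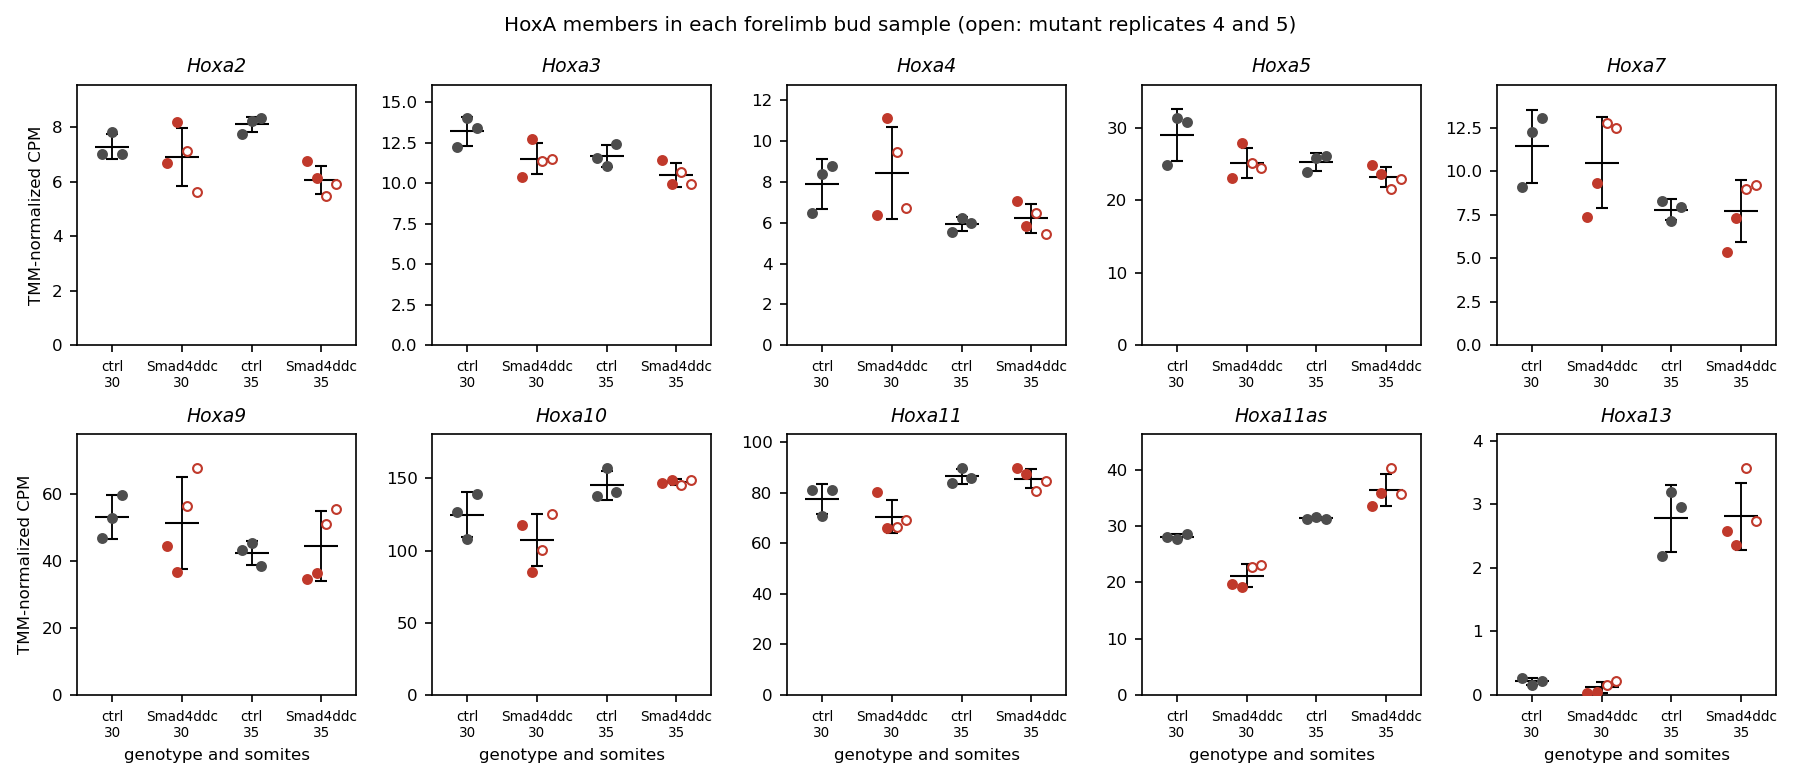
TMM-normalized CPM of the 10 HoxA members in each sample, by genotype and somite stage. Each point is 1 embryo, open points are mutant replicates 4 and 5, and bars are the mean ± SD (n=3 controls, n=4 mutants per stage). Hoxa13 is close to 0 at 30 somites and between 2.18 and 3.56 CPM at 35 somites, and Hoxa11as is the member whose controls and mutants do not overlap at either stage.

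The stage comparison in controls asked how the cluster changed from 30 to 35 somites when Smad4 was intact. Hoxa13 rose 12.5-fold, and by the called genes it was the 1 member of 10 that changed. A gene was called at a Benjamini-Hochberg adjusted P of at most 0.1 over all 12393 genes tested and a fold change of at least 1.2 (edgeR exact test), and in this comparison 10.1% of all tested genes were called (5.39% higher and 4.74% lower), 1256 genes, or 484 to 1515 with 1 sample left out. The reads on Hoxa13, the gene of the distal limb segment, were 15, 8 and 10 in the 3 controls at 30 somites and 91, 163 and 135 at 35 somites. In CPM these were 0.274, 0.163 and 0.220 against 2.18, 3.20 and 2.95, with a log2 fold change of 3.64 (SE 0.243, adjusted P=1.98e-25, n=3 and 3, edgeR exact test). Every 35-somite control was thus several times above every 30-somite control, although at 30 somites the level rests on 8 to 15 reads per sample. No 30-somite sample of either genotype reached 1 CPM. Hoxa13 thus passed the filter for testing, 1 CPM in 3 or more samples, only through the 35-somite samples where it is high.

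The other 5′ members of the controls moved less. Hoxa10 had 127, 108 and 139 CPM at 30 somites and 138, 157 and 140.5 CPM at 35 somites, groups that overlap (log2 fold change 0.22, SE 0.1202, adjusted P=0.287). Hoxa11 had 81.0, 70.8 and 81.1 CPM and then 83.9, 89.6 and 85.7 CPM (log2 fold change 0.15, SE 0.0710, adjusted P=0.352). Hoxa11as had 28.0, 27.7 and 28.6 CPM and then 31.3, 31.7 and 31.2 CPM (log2 fold change 0.16, SE 0.0152, adjusted P=0.395). For Hoxa11 and Hoxa11as each 35-somite sample lay above each 30-somite sample, but the differences were small and did not pass the test. Together with Hoxa13 these were 3 of 10 members with all 35-somite controls higher, beside 16.6% of all tested genes.

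Hoxa4, Hoxa7 and Hoxa9, more 3′ in the cluster, had all 35-somite controls below all 30-somite controls, beside 20.4% of all tested genes. Hoxa9, with roles in the proximal limb segment, had 46.7, 52.6 and 59.7 CPM at 30 somites and 43.3, 45.4 and 38.5 at 35 somites (log2 fold change -0.32, SE 0.124, adjusted P=0.325). Hoxa7, a gene of the thoracic part of the trunk, had 9.06, 12.2 and 13.02 CPM and then 8.28, 7.10 and 7.91 CPM (log2 fold change -0.56, SE 0.174, adjusted P=0.103, just above the threshold). For Hoxa4 the values were 6.48, 8.40 and 8.77 CPM and then 5.55, 6.24 and 5.97 CPM (log2 fold change -0.41, SE 0.144, adjusted P=0.209). In a fit of the 2 control groups alone all 3 genes passed (adjusted P=0.0648 for Hoxa4, 0.00655 for Hoxa7 and 0.0248 for Hoxa9), and in the samples numbered 1 to 3 Hoxa7 and Hoxa9 passed (0.0204 and 0.0339). The genes of the 3′ end, Hoxa2 (log2 fold change 0.15), Hoxa3 (-0.18) and Hoxa5 (-0.20), had overlapping groups and adjusted P of 0.615, 0.427 and 0.314.

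In the mutants 6 of the 10 members passed the test between 30 and 35 somites, 4 higher and 2 lower, beside 19.2% of all tested genes called (10.8% higher and 8.4% lower). The 4 that rose were the 5′ members Hoxa13, Hoxa11as, Hoxa10 and Hoxa11, each with every 35-somite mutant above every 30-somite mutant, a pattern found in 11.1% of all tested genes. No member had every 35-somite mutant below every 30-somite mutant, beside 8.91% of all tested genes. Hoxa13 rose from 2, 3, 6 and 9 reads in mutant replicates 1, 3, 4 and 5 to 145, 121, 126 and 84 reads in mutant replicates 1, 2, 4 and 5. In CPM this was 0.0342, 0.0519, 0.164 and 0.221 against 2.58, 2.36, 3.56 and 2.73 (log2 fold change 4.69, SE 0.448, adjusted P=1.07e-43, n=4 and 4, edgeR exact test). The size of this fold change depends on the 2 to 9 reads at 30 somites.

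Hoxa11as rose 1.72-fold in the mutants, from 19.8, 19.1, 22.8 and 23.1 CPM to 33.5, 36.0, 40.3 and 35.7 CPM (log2 fold change 0.78, SE 0.0884, adjusted P=1.17e-14). Hoxa10 rose 1.38-fold, from 118, 85.3, 100.1 and 125 CPM to 147, 149, 145 and 149 CPM (log2 fold change 0.46, SE 0.125, adjusted P=0.000247). The 30-somite mutants were scattered for Hoxa10 (SD 18.1 CPM), whereas the 35-somite mutants lay within a few CPM of each other (SD 1.88 CPM). Hoxa11 rose 1.21-fold, from 80.3, 66.1, 66.6 and 69.3 CPM to 89.6, 87.3, 80.7 and 84.5 CPM (log2 fold change 0.28, SE 0.0731, adjusted P=0.00769). This is just past the fold threshold. With the replicate number as a block, Hoxa11 fell under it (log2 fold change 0.24, adjusted P=0.0469). That fit rests on the 3 same-numbered mutant pairs, and replicate 3 of 30 somites and replicate 2 of 35 somites have no partner. Hoxa11 also fell under the threshold without mutant replicate 3 or 4 of 30 somites or mutant replicate 1 of 35 somites (log2 fold change 0.25 to 0.26).

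Hoxa4 and Hoxa7 fell in the mutants by the same test, but their groups overlapped. Hoxa4 had 6.37, 11.1, 9.44 and 6.73 CPM at 30 somites and 7.05, 5.85, 6.48 and 5.47 CPM at 35 somites (log2 fold change -0.44, SE 0.208, adjusted P=0.0595). Hoxa7 had 7.35, 9.31, 12.8 and 12.5 CPM and then 5.33, 7.31, 8.96 and 9.21 CPM (log2 fold change -0.45, SE 0.262, adjusted P=0.0891). At each stage mutant replicates 4 and 5, those rich in Rn45s, had the highest Hoxa7 values of the mutants. The Hoxa4 call was lost with the replicate block (log2 fold change -0.22, adjusted P=0.325) and in 4 of the 14 fits that left out 1 sample, those without mutant replicate 3 or 4 of 30 somites and mutant replicate 2 or 5 of 35 somites (adjusted P=0.158 to 0.314). The Hoxa7 call kept its place with the block (adjusted P=0.0419) but was lost in 9 of the 14 fits, in which the adjusted P was 0.102 to 0.306. Neither Hoxa4 nor Hoxa7 passed in the samples numbered 1 to 3 (adjusted P=0.248 and 0.229) or in a fit of the 2 mutant groups alone (0.114 and 0.148), and Hoxa7 was lost with the quasi-likelihood test (0.125) and with no filter on low counts (0.110). Hoxa9 passed with the block (log2 fold change -0.27, adjusted P=0.0979). Hoxa2, Hoxa3, Hoxa5 and Hoxa9 had log2 fold changes of -0.19, -0.13, -0.11 and -0.21 without the block and adjusted P of 0.374 to 0.485.

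**Figure D2:**
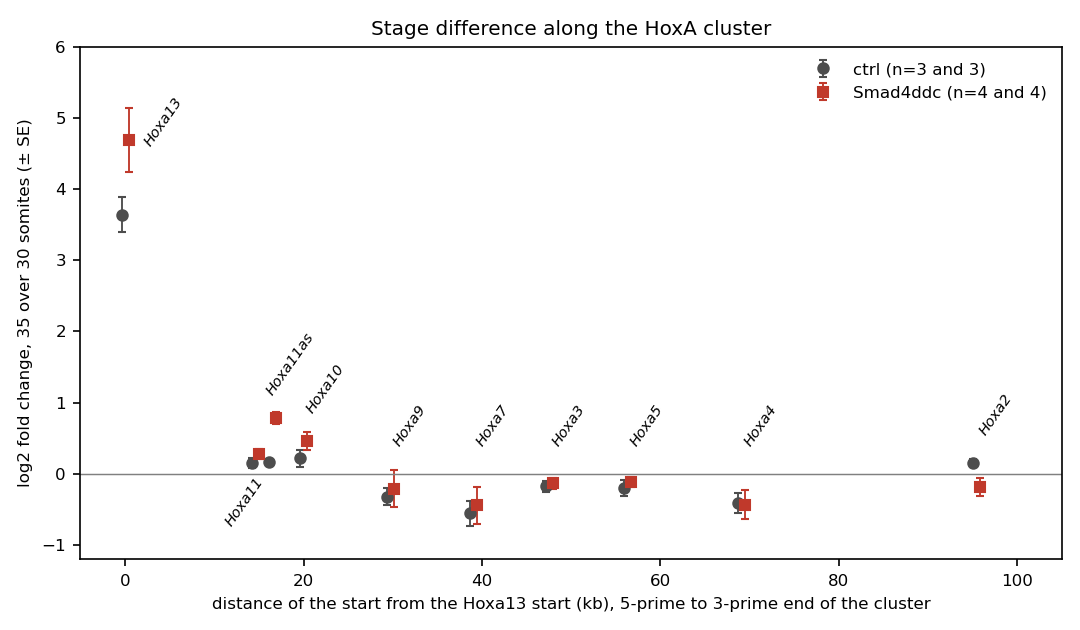
Log2 fold change from 30 to 35 somites (y axis, ± SE) of each HoxA member in controls (grey circles, n=3 and 3) and mutants (red squares, n=4 and 4). The x axis is the distance in kb of its outermost annotated start from the Hoxa13 start. The 4 members within 20.02 kb of the Hoxa13 start lie above 0 in both genotypes, and Hoxa9, Hoxa7, Hoxa3, Hoxa5 and Hoxa4 lie below 0 in both. Hoxa2 lies above 0 in controls and below 0 in mutants.

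Read along the chromosome, the 4 members at the 5′ end had stage differences above 0 in both genotypes, and the 5 members from Hoxa9 to Hoxa4 had differences below 0 in both. Hoxa2, at the 3′ end, was above 0 in controls (0.15) and below 0 in mutants (-0.19). The sign changed between Hoxa10 and Hoxa9, 20.02 kb and 29.8 kb from the Hoxa13 start. Only part of these differences passed the test, as given above. Over the 10 members the median log2 stage difference was -0.01 in controls and -0.12 in mutants, beside -0.01 over all tested genes in each genotype. Each sample has 1 value per gene, and neighboring members were not independent of each other.

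The genotype comparison at 30 somites asked which members differ when Smad4 is inactivated in the mesenchyme. Hoxa11as was lower in mutants, and it was the 1 called member of 10, beside 6.61% of all tested genes called (3.33% higher and 3.28% lower), 819 genes, or 254 to 1062 with 1 sample left out. The 3 controls had 28.0, 27.7 and 28.6 CPM and the 4 mutants 19.8, 19.1, 22.8 and 23.1 CPM, so that every mutant lay below every control, as for 9.78% of all tested genes, while no member was higher in every mutant, beside 8.07% of all tested genes. The controls averaged 28.1 ± 0.464 CPM (SD, n=3), and the mutants 21.2 ± 2.03 CPM (SD, n=4), a 1.33-fold difference (log2 fold change -0.41, SE 0.0707, adjusted P=0.00290). In the samples numbered 1 to 3 the log2 fold change was -0.52 (adjusted P=2.68e-05), and the Rn45s-rich mutant replicates 4 and 5 were the mutants closest to the controls.

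Hoxa11, the sense partner, had 77.6 ± 5.94 CPM in controls and 70.6 ± 6.67 CPM in mutants at 30 somites, with overlapping samples (log2 fold change -0.14, SE 0.0925, adjusted P=0.432). Hoxa10 had 125 ± 15.5 CPM in controls and 107 ± 18.1 CPM in mutants (log2 fold change -0.22, adjusted P=0.293). Hoxa13, at the limit of detection, had 33 reads in the 3 controls together and 20 reads in the 4 mutants, a library-adjusted ratio of mutants to controls of 0.467 (95% exact interval 0.254 to 0.838, counting error only). Between embryos the difference did not pass (log2 fold change -1.05, SE 0.466, adjusted P=0.264), since mutant replicates 4 and 5, with 6 and 9 reads, lay in the range of the controls in CPM and replicates 1 and 3, with 2 and 3 reads, lay below it. In the samples numbered 1 to 3 the log2 fold change of Hoxa13 was -2.28 (adjusted P=0.0102).

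Hoxa9 showed the same division of the mutants. Replicates 1 and 3 had 44.5 and 36.6 CPM, below the 3 controls (46.7 to 59.7 CPM), and replicates 4 and 5 had 56.5 and 67.6 CPM, in or above their range. With all samples its log2 fold change was -0.05 (SE 0.219, adjusted P=0.927), and in the samples numbered 1 to 3 it was -0.37 (adjusted P=0.0260). Hoxa7 changed from -0.13 to -0.44 on the log2 scale between the same fits, without passing in either (adjusted P=0.808 and 0.109). The share of Rn45s moves with these values, and its part in them was not tested. Hoxa2, Hoxa3, Hoxa4 and Hoxa5 had log2 fold changes of -0.07, -0.20, 0.10 and -0.20 with overlapping groups and adjusted P of 0.293 to 0.854. Over the cluster 9 of 10 members were below 0, with a median log2 difference of -0.17 beside -0.02 over all tested genes.

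At 35 somites Hoxa2, the most 3′ member, was lower in mutants, and it was the 1 called member of 10, beside 3.73% of all tested genes called (2.19% higher and 1.54% lower), 462 genes, or 286 to 516 with 1 sample left out. Its controls had 7.78, 8.22 and 8.33 CPM and its mutants 6.75, 6.14, 5.49 and 5.92 CPM, without overlap, as for 6.4% of all tested genes (log2 fold change -0.41, SE 0.0687, adjusted P=0.0985). This value is at the edge of the threshold. The adjusted P was 0.111 with edgeR's quasi-likelihood test and 0.331 in the samples numbered 1 to 3, where the log2 fold change was -0.32. In 10 of the 14 fits that left out 1 sample it was 0.109 to 0.394, and the call held only without mutant replicate 1, 3 or 5 of 30 somites or mutant replicate 1 of 35 somites. Hoxa2 acts chiefly in the hindbrain and the pharyngeal arches. Reads in a stretch that it shares with Hoxa3 in the annotation used for counting are missing from its value.

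The 5′ members were close to each other in the 35-somite genotypes. Hoxa10 had 145 ± 10.3 CPM in controls and 147 ± 1.88 CPM in mutants (log2 fold change 0.02, SE 0.0586, adjusted P=0.991). Hoxa11 had 86.4 ± 2.92 and 85.5 ± 3.81 CPM (log2 fold change -0.01, SE 0.0427, adjusted P=0.993). Hoxa13 had 389 reads in 3 controls and 476 reads in 4 mutants, 2.78 ± 0.529 and 2.81 ± 0.526 CPM, with a ratio of 0.975 (95% exact interval 0.851 to 1.12, counting error only). Hoxa11as was the exception, with 31.3, 31.7 and 31.2 CPM in controls and 33.5, 36.0, 40.3 and 35.7 CPM in mutants. Every mutant was higher than every control, as for 6.59% of all tested genes, but the 1.16-fold difference did not pass (log2 fold change 0.21, SE 0.0552, adjusted P=0.417). In the samples numbered 1 to 3 the log2 fold change of Hoxa11as was 0.16 (adjusted P=0.458).

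Hoxa3, Hoxa4, Hoxa5, Hoxa7 and Hoxa9 had log2 differences of -0.15, 0.07, -0.12, -0.02 and 0.06 between the 35-somite genotypes, all with overlapping groups and adjusted P of at least 0.791. Hoxa9 again divided the mutants. Replicates 1 and 2 had 34.6 and 36.4 CPM, below the controls (38.5 to 45.4 CPM), and replicates 4 and 5 had 51.0 and 55.5 CPM, above them. In the samples numbered 1 to 3 its log2 fold change was -0.25 (adjusted P=0.321). Over the 10 members the median log2 difference at 35 somites was -0.00455, beside -0.0104 over all tested genes, with 5 members above and 5 below 0.

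**Figure D3:**
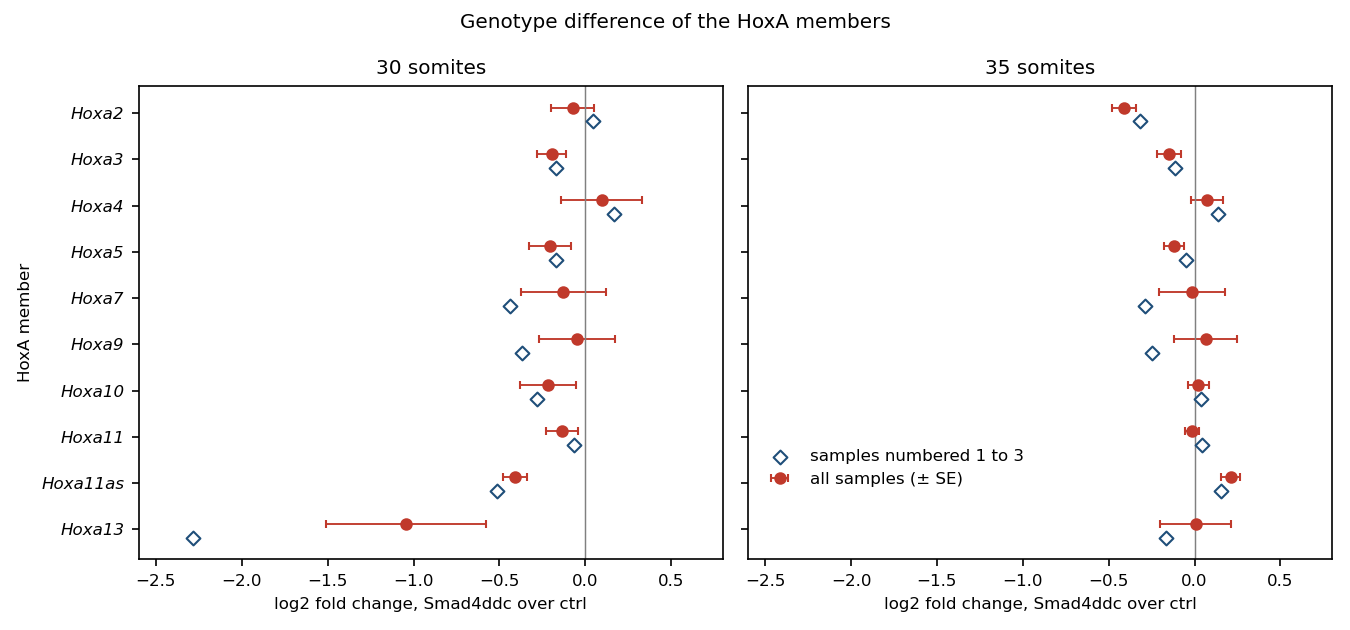
Log2 fold change of mutants over controls (x axis) for each HoxA member at 30 somites (left) and 35 somites (right). Red circles are all samples (± SE, n=3 controls and n=4 mutants per stage), and open diamonds are the samples numbered 1 to 3 without an error bar. Hoxa11as lies at -0.41 at 30 somites and 0.21 at 35 somites, and Hoxa13, Hoxa9 and Hoxa7 are the members that move most when mutant replicates 4 and 5 are left out.

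A test of the interaction of genotype and stage (edgeR quasi-likelihood test, all 14 samples) asked whether a genotype difference at 35 somites was other than that at 30 somites. Hoxa11as was the 1 called member of 10, beside 0.186% of all tested genes called (23 of 12393, 0.0565% with a higher and 0.129% with a lower difference at 35 somites), or 7 to 34 genes with 1 sample left out. Its genotype difference was 0.62 higher on the log2 scale at 35 than at 30 somites (adjusted P=0.0650), from lower in all 4 mutants at 30 somites to higher in all 4 mutants at 35 somites. In the samples numbered 1 to 3 the interaction was 0.67 (adjusted P=0.0363), and with DESeq2 it was 0.61 (adjusted P=0.000352). With 1 sample left out it stayed between 0.57 and 0.66, but the adjusted P was 0.102 to 0.218 in 11 of the 14 fits. The 3 fits that kept the call were those without mutant replicate 4 or 5 of 30 somites or mutant replicate 1 of 35 somites. With the replicate number as a block the interaction was 0.68 (adjusted P=0.277), and in that quasi-likelihood fit no gene passed (1058 had an unadjusted P under 0.05, and DESeq2 without the block called 87). This block rests on 2 same-numbered pairs of control and mutant at each stage, and the other samples do not inform its genotype difference. Hoxa13 had an interaction of 1.05 (adjusted P=0.936) and Hoxa2 of -0.34 (adjusted P=0.904), and the other 7 members had adjusted P of 0.9498 to 0.992.

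As the counted reads of Hoxa11 and Hoxa11as come from parts of the locus that do not overlap, the share of Hoxa11as in the reads of the pair describes their balance within a library and does not depend on its scaling. In controls this share was 25.7%, 28.1% and 26.1% at 30 somites and 27.2%, 26.1% and 26.7% at 35 somites, so that it was 26.6% ± 1.31 and 26.7% ± 0.525 (SD, n=3 each). In mutants it was 19.7%, 22.4%, 25.5% and 25.0% at 30 somites (mean 23.2% ± 2.64, SD, n=4) and 27.2%, 29.2%, 33.3% and 29.7% at 35 somites (mean 29.9% ± 2.52, SD, n=4). The mutants were all below the controls at 30 somites and all above them at 35 somites, in both cases by a small margin at the nearest samples (25.5% against 25.7%, and 27.25% against 27.17%). At both stages the Rn45s-rich mutant replicates 4 and 5 had the highest shares of the mutants. They were thus the mutants nearest to the controls at 30 somites and farthest from them at 35 somites. These shares rest on 834 to 1888 reads of Hoxa11as and 2439 to 5041 reads of Hoxa11 per sample.

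**Figure D4:**
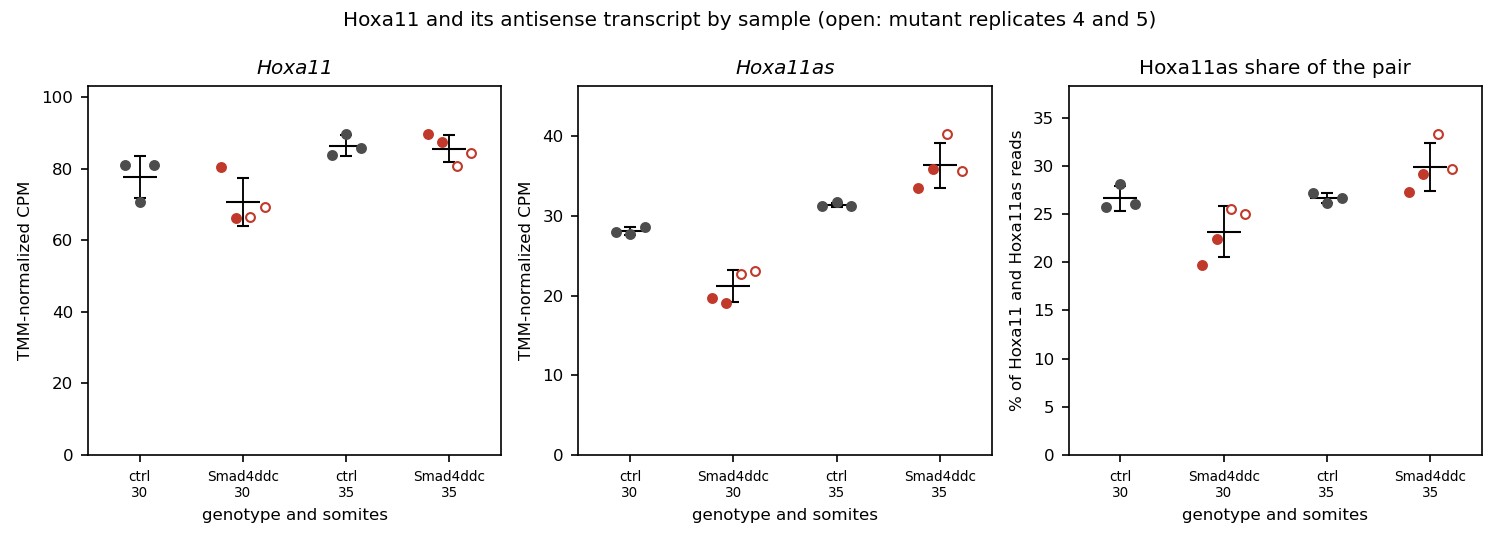
TMM-normalized CPM of Hoxa11 (left) and Hoxa11as (middle), and Hoxa11as reads as a percent of the reads of both genes (right), in each sample by genotype and somite stage. Points are embryos, open points are mutant replicates 4 and 5, and bars are the mean ± SD (n=3 controls, n=4 mutants per stage). The share is 26.6% and 26.7% in controls of the 2 stages and 23.2% and 29.9% in mutants.

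Other transcripts of the cluster region were read from a list as well. Evx1, a homeobox gene next to Hoxa13, was lower in mutants at 30 somites (0.791 ± 0.175 against 0.372 ± 0.104 CPM, log2 fold change -1.08, SE 0.266, adjusted P=0.0155). It rose with stage in controls (log2 fold change 1.70, adjusted P=1.47e-07) and in mutants (2.14, adjusted P=7.36e-13), the same direction as Hoxa13. Mira, a non-coding transcript of the cluster, fell with stage in controls and in mutants (log2 fold changes -0.29 and -0.32, adjusted P=0.0724 and 0.00711). Hoxa6 and 2700086A05Rik passed in no comparison.

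Of the 9 genes that flank the cluster, Nfe2l3, a transcription factor gene, was higher in mutants at 30 somites (0.732 against 1.25 CPM, log2 fold change 0.77, adjusted P=0.0900), and Jazf1, a zinc finger gene, rose with stage in mutants (3.56 to 4.99 CPM, log2 fold change 0.49, adjusted P=0.00677). None of the 9 was called in the other 3 comparisons. Among the genes for TALE homeodomain proteins, the DNA-binding partners of HOX proteins, Meis3 was lower in mutants at 35 somites (9.89 against 5.67 CPM, log2 fold change -0.80, adjusted P=0.00138), also in the samples numbered 1 to 3 (adjusted P=0.00649). With stage Meis3 (log2 fold change -1.07, adjusted P=6.06e-08) and Meis2 (-0.37, adjusted P=6.53e-05) fell in mutants.

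Polycomb and Trithorax proteins keep Hox clusters silent or active, and a list of 26 genes, made up of genes linked to them and Ctcf, was tested. Mll1 was higher in mutants at 30 somites (115 against 172 CPM, log2 fold change 0.58, adjusted P=0.0322), but its groups overlapped and in the samples numbered 1 to 3 it did not pass (log2 fold change 0.39, adjusted P=0.144). Bmi1 rose with stage in controls (84.6 to 107 CPM, log2 fold change 0.33, adjusted P=0.0745) and Cbx8 rose with stage in mutants (5.37 to 7.45 CPM, log2 fold change 0.47, adjusted P=0.0204). All other genes of this list stayed under the threshold in these comparisons.

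Hoxd13, the HoxD paralogue of Hoxa13, was higher in mutants at both stages. It had 44.4 against 59.9 CPM at 30 somites (log2 fold change 0.43, SE 0.132, adjusted P=0.0312) and 68.1 against 95.1 CPM at 35 somites (0.48, SE 0.139, adjusted P=0.0114), whereas Hoxa13 passed at neither. With stage, 5 of the 7 tested paralogues of the 5′ members changed in controls and 6 in mutants. Hoxd11, Hoxd12 and Hoxd13 rose in controls (log2 fold changes 0.53, 1.37 and 0.62) and in mutants (0.71, 1.66 and 0.67). Hoxd9 fell in both (-0.65 and -0.46) and so did Hoxb9 (-1.10 and -1.73), and Hoxc9 fell in mutants (-0.80). At the later stage the group 13 gene was thus higher in both clusters, while the group 9 gene fell in HoxD and had a difference below 0 that did not pass in HoxA.

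From a list of 10 limb genes that act with or after the HOXA proteins, Grem1, the BMP antagonist of the posterior limb bud, was lower in mutants at 30 somites (23.2 against 9.96 CPM, log2 fold change -1.22, adjusted P=1.73e-15) and at 35 somites (28.6 against 13.4 CPM, -1.09, adjusted P=9.34e-13). Bmp2, a BMP ligand, was higher in mutants at 35 somites (2.95 against 5.54 CPM, log2 fold change 0.91, adjusted P=9.51e-06). Enpp2, which makes lysophosphatidic acid, was higher in mutants at both stages (log2 fold changes 0.78 and 0.95, adjusted P=0.0319 and 0.00350). Aldh1a2, the enzyme that makes retinoic acid, was higher in mutants at 30 somites (5.29 against 25.5 CPM, log2 fold change 2.27) and lower at 35 somites (10.5 against 4.57 CPM, -1.196), with an interaction of -3.45 (adjusted P=0.00329). The signs of Aldh1a2 are the reverse of those of Hoxa11as and the same as those of the mesothelial and body wall markers given above.

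As a description, the tested genes whose log2 CPM ran most closely with a member over the 14 samples were ranked by Pearson's r. The samples share stage, genotype and library kind, so these values say nothing of control or function. For Hoxa11 the closest genes outside the list of members were Narf (r=0.964), Arfgap3 (0.955), A030009H04Rik (0.955), Pnrc1 (0.952) and Klf10 (0.949). For Hoxa13 they were Synpo (0.979), 5930403L14Rik (0.968), Edn3 (0.968), Gstm7 (0.962) and Islr (0.962). Among the members the highest values were those of Hoxa11as with Hoxa13 (0.904), Hoxa10 with Hoxa11 (0.894) and Hoxa3 with Hoxa5 (0.879), and the lowest was that of Hoxa4 with Hoxa10 (-0.801). Hoxa11 and Hoxa11as had r=0.719.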

How the data were processed

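The deposited files hold raw read counts per gene symbol, 1 file per embryo. The authors aligned single reads to mm9 and its refGene transcripts with TopHat2 2.0.13, and htseq-count was set to ignore the strand of the uniquely mapped reads that it counted (its version is not given in the sources used here). Reads that fall on overlapping genes are therefore missing from both.

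From the counts, genes of the sex chromosomes and the mitochondrion were removed, and a gene stayed in if 3 or more samples reached 1 CPM. Groups were compared with the edgeR 4.0.16 exact test in R 4.3.3 (TMM, tag-wise dispersion with prior df 10, all 14 samples in the fit). Adjusted P are Benjamini-Hochberg values over all tested genes, and a gene was called if its adjusted P did not exceed 0.1 and it differed 1.2-fold or more. The interaction was tested with edgeR's quasi-likelihood test at the same adjusted P without a fold threshold. The SE of a log2 fold change comes from the replicate variances of log2 CPM (prior count 2). The scripts were tested on simulated data. Transcript lengths and positions are those of GENCODE vM1, which is not the annotation used for counting. Every member was described in every comparison. Of the other lists, genes that passed were named, up to the 5 of smallest P for each comparison. Some genes of these lists are not reported here. The members and lists were chosen with earlier results of these data known.

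Each replicate is a separate embryo, and replicates of a group differed by more than sampling noise (chi-square per degree of freedom of at least 12.2). Whether equal replicate numbers pair samples was checked by the correlation of their deviations from the group means. In the stage comparison of the mutants the 3 same-numbered pairs had r of 0.214 to 0.556. The 13 differently numbered pairs had r of -0.487 to 0.298, a range that overlaps. The blocked values are given beside the results that they change. The likeness by number comes from the data, as the embryos differ, and 2 of the 3 pairs are the Rn45s-rich replicates 4 and 5. Whether it is more than a likeness of the Rn45s-rich replicates to each other was not tested. Tried as alternatives were the quasi-likelihood test, DESeq2 1.42.0, RLE size factors, no filter, the compared groups alone, the replicate block, the samples numbered 1 to 3, leaving out each sample and, chosen after seeing the data, leaving out Rn45s. Between genotypes the block rests on 2 same-numbered pairs per stage, replicates 1 and 3 at 30 somites and 1 and 2 at 35 somites. Samples without a partner of their number, among them mutant replicates 4 and 5, do not inform that difference.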

Additional observations from a re-analysis of the deposited data

Results flagged for a closer look

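The Hoxa11as genotype difference drew a closer look because it was not the same at the 2 stages. On the log2 scale it was -0.41 at 30 somites, with all 4 mutants below all 3 controls, and 0.21 at 35 somites, with all 4 mutants above all 3 controls. The difference between the stages was 0.62 (edgeR quasi-likelihood test, adjusted P=0.0650). Its adjusted P was 0.0429 to 0.218 when 1 sample was left out, and 0.277 with the replicate block. The sum of the mesothelial and body wall markers moved in the reverse sense. In mutants it was 7.94 to 18.3 CPM at 30 somites, above all controls, and 0.586 to 2.38 CPM at 35 somites, below all controls. The part of that in the Hoxa11as values was not tested. No sample stood apart from its group in the 20 sets of 4 mutant values of the members.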

How the results depend on the processing

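Hoxa13 and Hoxa11as with stage in mutants, Hoxa10 with stage in mutants, Hoxa13 with stage in controls and the lower Hoxa11as of 30-somite mutants passed in all 14 fits that left out 1 sample. The number of members called between genotypes at 30 somites was 1, and 3 with the replicate block (Hoxa10 at adjusted P=0.0991, Hoxa11as at 0.0312 and Hoxa13 at 0.0537) or in the samples numbered 1 to 3. Both of these fits compare mutant replicates 1 and 3 alone with controls, and the block uses only the controls of the same numbers. At 35 somites it was 1, and 0 with the quasi-likelihood test, RLE size factors, no filter, the replicate block, the samples numbered 1 to 3 or without Rn45s. At an unadjusted P under 0.05 there were 2 members in these fits and 0 with the block, and DESeq2 called 1. With stage in controls it was 1, and 4 in the fit of both groups alone or with the replicate block, and 3 in the samples numbered 1 to 3. For the interaction it was 1, and 0 with the replicate block, in which 2 members had an unadjusted P under 0.05 and DESeq2 without the block called 1. With stage in mutants it was 6, and 5 with the quasi-likelihood test, no filter or the block, and 4 in the fit of both groups alone or in the samples numbered 1 to 3. Over all tested genes this comparison called 2374, and 2308 with the quasi-likelihood test, 2632 without a filter and 1957 with the block. The fit of both mutant groups alone called 2074 and the samples numbered 1 to 3 called 2151. Leaving out 1 sample gave 0 to 1 called members at 35 somites, 1 to 2 with stage in controls, 3 to 6 with stage in mutants (3 without mutant replicate 4 of 30 somites) and 0 to 1 for the interaction. With stage in mutants these fits called 1895 to 2732 of all tested genes. Over all tested genes the calls between genotypes at 30 somites rose from 819 to 1990 with the block and to 2018 in the samples numbered 1 to 3. Those with stage in controls rose from 1256 to 1932 in the fit of both groups alone, 1899 with the block and 1826 in the samples numbered 1 to 3. Between genotypes at 35 somites the calls were 462, and 341 with the quasi-likelihood test, 467 with RLE size factors and 507 without a filter or with DESeq2. The block gave 378, the samples numbered 1 to 3 gave 525 and leaving out Rn45s gave 466. Those of the interaction were 23, and 87 with DESeq2, 39 without a filter, 6 in the samples numbered 1 to 3 and 0 with the block. Leaving out 1 sample moved these calls by over 1.5 times at 30 somites without control replicate 3 (254) or mutant replicate 5 (494) of that stage, at 35 somites without control replicate 2 of that stage (286 of 462), and with stage in controls without control replicate 2 (484) or 3 (827) of 30 somites or control replicate 2 (823) or 3 (512) of 35 somites. For the interaction 11 of the 14 samples did so, with 7 to 15 calls. Directions turned only in differences that did not pass with all samples. With the block and in the samples numbered 1 to 3 these were Hoxa2 at 30 somites (0.075 and 0.045), and at 35 somites Hoxa9 (-0.32 and -0.25), Hoxa11 (0.028 and 0.043) and Hoxa13 (-0.11 and -0.16). With 1 sample left out the genotype difference at 30 somites ran from -0.17 to 0.010 for Hoxa2, -0.072 to 0.22 for Hoxa4, -0.27 to 0.019 for Hoxa7 and -0.21 to 0.084 for Hoxa9. At 35 somites it ran from -0.11 to 0.14 for Hoxa7, -0.062 to 0.17 for Hoxa9, -0.0060 to 0.089 for Hoxa10, -0.030 to 0.019 for Hoxa11 and -0.13 to 0.13 for Hoxa13. The interaction ran from -0.0035 to 0.099 for Hoxa3, -0.14 to 0.14 for Hoxa4, -0.032 to 0.26 for Hoxa7 and -0.023 to 0.27 for Hoxa9. Outside the stage comparison of mutants, the deviations of same-numbered samples had r of -0.230 to 0.141. With 2 or 3 such pairs per comparison, these values cannot decide whether equal numbers pair samples there. Hoxa13 gave no value at 30 somites in the fit of both groups alone, since too few samples passed the filter. Depth limits Hoxa13 at 30 somites, where single libraries hold 2 to 15 reads.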
